A study of Mus musculus with 2 samples.

Results

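The 10 genes described here are the glucocorticoid receptor gene Nr3c1, the steroid enzyme gene Hsd11b1 and 8 genes that glucocorticoids induce (Fkbp5, Tsc22d3, Zbtb16, Per1, Sgk1, Klf9, Errfi1 and Ddit4). They are 10 of the 32286 features counted in 2 single-cell RNA sequencing libraries of mouse lung. The members were chosen by symbol, and they were selected on measured values of these same libraries, since earlier results, among them ratios of TCM over CM, were known when the list was drawn up. The ratios below are therefore descriptions. The animals of both groups were female BALB/c mice, 9 to 10 weeks of age, which received intravenous injections for 3 weeks. One group was given control media (CM), and the other was given tumor conditioned media (TCM), DMEM without FBS in which primary tumors of 4T1 mouse breast cancer cells had been cultured (media of 3 tumors per pool). Control media had been kept in parallel without tumor. Each group had 1 library, and how many mice entered a library was not stated, so that the spread between mice is unknown and an effect of the media cannot be told apart from any other difference between the libraries. No test was made and no p-value was computed. All intervals are 95% intervals of counting error alone.

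Glucocorticoids enter the cell and bind the receptor encoded by Nr3c1, which is held in the cytoplasm by heat shock protein chaperones. The hormone-bound receptor moves to the nucleus and switches on genes near its binding elements, among them genes for anti-inflammatory and metabolic regulators. Lung fibroblasts regenerate active hormone from its inactive form with the enzyme encoded by Hsd11b1, and glucocorticoids drive lung maturation before birth.

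The CM library held 31944151 UMIs (unique molecular identifiers, each standing for 1 captured RNA molecule) and the TCM library 36648719. The filters of the study (at least 500 UMIs, at least 200 genes and at most 10% mitochondrial UMIs) left 7988 CM and 7707 TCM droplets, with medians of 2085 and 2346 UMIs, and 93 barcodes occurred in both libraries. A droplet was given a class by the number of distinct marker genes it held, and 11583 of the 15695 droplets (73.8%) received 1 of 18 classes. Counts over classes use the 10 classes with at least 100 droplets in each library. Their own markers were present in both libraries, with between 6 and 10 of them in the median CM droplet and between 6 and 11 in the median TCM droplet, against at most 3 markers of the next class. Names carry "-like" because they rest on these markers alone. Between 3.84% and 30.3% of the droplets of a class lay exactly at a limit of the gate, with the largest shares in the monocyte-like class. Depth differed between the libraries in several classes. The median was 2535 UMIs in CM and 4796.5 in TCM for AT2-like droplets, 2755 and 4277 for fibroblast-like droplets, and 1970 and 2615 for endothelial-like droplets. Neutrophil-like droplets numbered 228 in CM and 1355 in TCM.

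The level of a gene is its summed UMIs per 100000 UMIs of the class (CP100k). Since the libraries count molecules from their 5′ ends and are not scaled by transcript length, levels were compared between classes for 1 gene and never between genes. Statements on the highest and lowest levels are over the 10 main classes. The difference is the log2 ratio of the TCM level over the CM level. Of the 100 pairs of a member and a class, 73 had at least 50 UMIs over both libraries. Among these, 8 pairs were at least 2-fold higher in TCM and 1 pair was at least 2-fold lower. The interval of the ratio lay above 0 in 26 pairs, below 0 in 15 and across 0 in 32. Beside each count below stands the background, the percentage of all genes with at least 50 UMIs in that class that met the same criterion.

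In fibroblast-like droplets all 10 members had 50 UMIs or more, and 2 of them, Zbtb16 and Fkbp5, were at least 2-fold higher in TCM (background 0.386%). None was at least 2-fold lower (background 0.515%). The interval lay above 0 for 7 members (background 7.38%) and below 0 for 1, Nr3c1 (background 6.46%). The median log2 ratio over the 10 members was 0.50, against −0.0040 over 8549 genes, and it was the largest such median among the 10 classes. In pericyte and smooth muscle-like droplets 9 members had enough UMIs. Zbtb16 and Per1 were at least 2-fold higher (background 0.92%) and none was at least 2-fold lower (background 0.307%). Intervals above 0 numbered 3 (background 6.22%) and intervals below 0 numbered 2 (background 6.13%), those of Nr3c1 and Hsd11b1.

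In endothelial-like droplets, where all 10 members had enough UMIs, Fkbp5 was at least 2-fold higher (background 0.487%) and none was at least 2-fold lower (background 0.586%). Zbtb16 lay just below that limit, at 0.92 on the log2 scale. Intervals above 0 were found for 5 members (background 10.5%) and below 0 for 2, Hsd11b1 and Tsc22d3 (background 9.06%). In AT2-like droplets, the class that makes surfactant, Zbtb16 was the 1 member at least 2-fold higher among 7 with enough UMIs (background 0.996%), and none was at least 2-fold lower (background 1.06%). Here 3 intervals lay above 0 (background 8.76%) and that of Nr3c1 lay below (background 5.4%). In AT1-like droplets, the flat cells of the gas exchange surface, none of 5 members passed 2-fold in either direction (backgrounds 0.829% higher and 0.246% lower). Tsc22d3 and Sgk1 had intervals above 0 (background 4.59%), and Nr3c1 had one below (background 4.39%).

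Among the immune classes, in alveolar macrophage-like droplets none of 6 members passed 2-fold (backgrounds 1.4% higher and 0.28% lower), 4 intervals lay above 0 (background 11.8%) and none lay below (background 5.46%). The neutrophil-like class had the highest backgrounds at 2-fold. There Ddit4 and Hsd11b1 were at least 2-fold higher among 8 members (background 7.89%) and Fkbp5 was at least 2-fold lower (background 8.5%). Intervals lay above 0 for those 2 genes (background 12.3%) and below 0 for Nr3c1, Fkbp5 and Tsc22d3, which makes 3 (background 21.2%). In monocyte-like droplets none of 6 members passed 2-fold (backgrounds 3.31% higher and 3.09% lower), none had an interval above 0 (background 12.3%), and Tsc22d3, Sgk1 and Klf9 had intervals below it, 3 in all (background 11.9%). In B-like droplets none of 4 passed 2-fold (backgrounds 1.06% higher and 1.3% lower), none had an interval above 0 (background 5.3%), and Tsc22d3 and Ddit4, 2 genes, had intervals below (background 6.45%). In T-like droplets none of 8 members passed 2-fold (backgrounds 0.823% higher and 0.498% lower), and no interval left 0 on either side (backgrounds 6.5% above and 5.47% below).

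**Figure D1:**
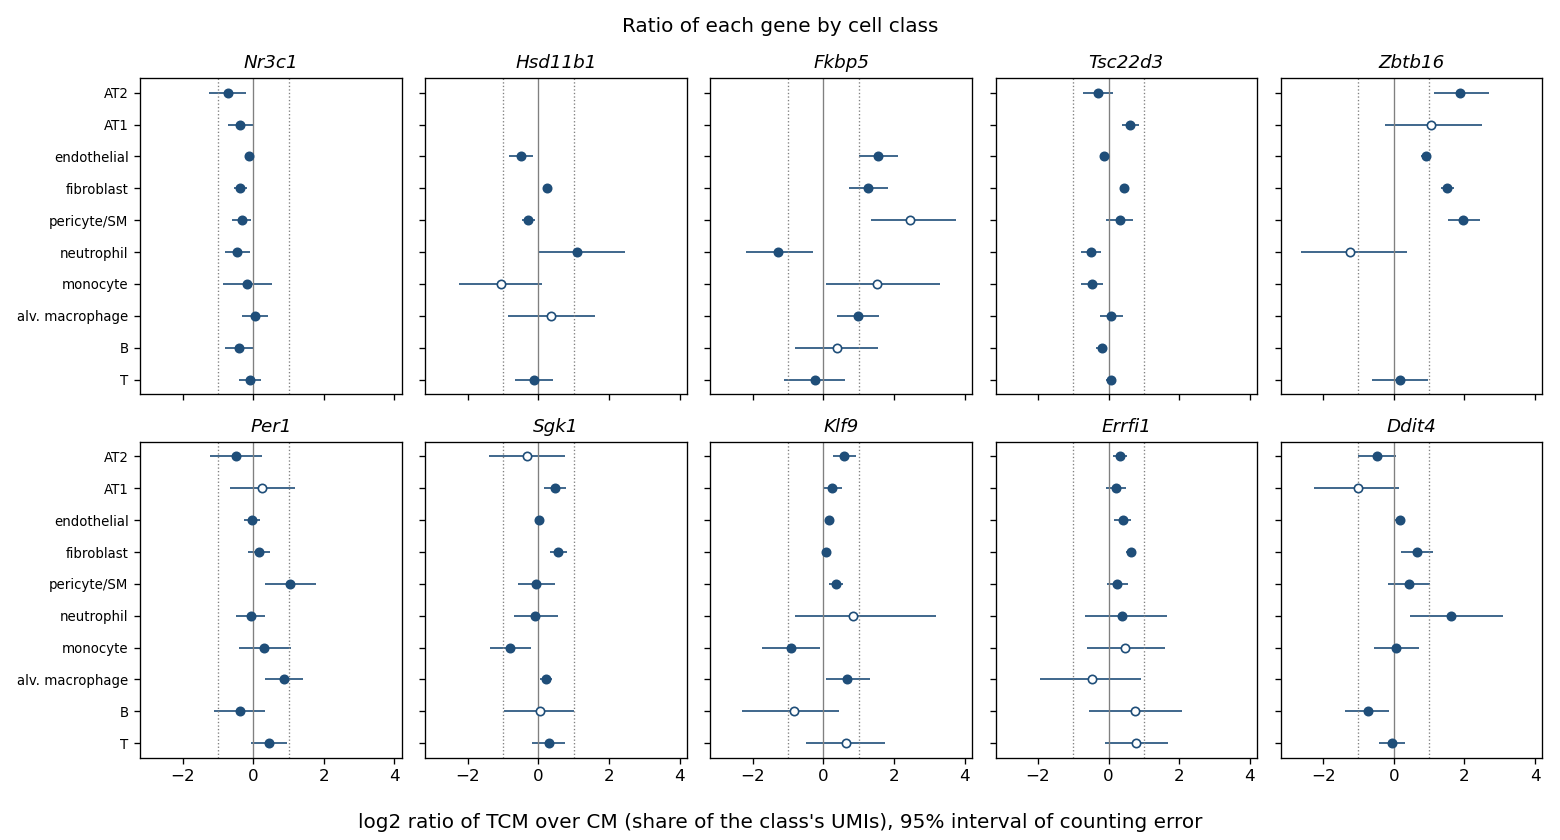
Log2 ratio of TCM over CM (x axis) for each of the 10 genes in the 10 cell classes (y axis). Points carry 95% intervals of counting error, filled points rest on at least 50 UMIs over both libraries and open points on 20 to 49, and dotted lines mark a 2-fold difference. Zbtb16 lay to the right in the AT2-like, endothelial-like, fibroblast-like and pericyte and smooth muscle-like classes, while Nr3c1 lay left of 0 in 9 classes.

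The receptor was examined first. Nr3c1 (ENSMUSG00000024431) lies on the minus strand of chromosome 18, from base 39410545 to 39519421 of GRCm38. In CM its level was highest in pericyte and smooth muscle-like droplets (27.1 CP100k), followed by neutrophil-like (25.0), endothelial-like (21.3), AT1-like (20.7) and fibroblast-like droplets (20.6), and the intervals of neighbours in that order overlapped. It was lowest in AT2-like droplets, at 7.91 CP100k in CM and 4.78 in TCM. That was the class with the largest difference, a log2 ratio of −0.73 (interval −1.25 to −0.21). The other intervals below 0 were those of neutrophil-like droplets (25.0 and 18.2 CP100k in CM and TCM, log2 ratio −0.46), fibroblast-like droplets (20.6 and 16.0, −0.37), AT1-like droplets (20.7 and 16.1, −0.36) and pericyte and smooth muscle-like droplets (27.1 and 21.6, −0.33). The 3 classes where Zbtb16 was at least 2-fold higher, AT2-like and both stromal ones, are among these. Since the ratio of Nr3c1 lay below 0 in 9 of the 10 classes, this overlap says little. Over the 7 classes with at least 20 UMIs of each gene, the Pearson correlation of the log2 ratios of Nr3c1 and Zbtb16 was −0.22. Over all kept droplets the log2 ratio of Nr3c1 was −0.20 (interval −0.26 to −0.14), from levels of 17.3 CP100k in CM and 15.1 in TCM. Alveolar macrophage-like droplets were the exception among the 10 classes, at 9.18 and 9.54 CP100k, with an interval of the ratio from −0.32 to 0.43. In the droplets left without a class the ratio was −0.22 (interval −0.33 to −0.11).

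Hsd11b1 (ENSMUSG00000016194, GRCm38 chromosome 1, 193221634 to 193264075, minus strand) encodes the enzyme that turns inactive glucocorticoid into its active form. Its level was concentrated in the stromal classes. Fibroblast-like droplets held 106 CP100k in CM and 125 in TCM (3260 and 3237 UMIs), and pericyte and smooth muscle-like droplets held 61.7 and 50.7. Every other main class was below 5 CP100k in both libraries, a gap far wider than the counting error. The 2 stromal classes differed in opposite directions, with log2 ratios of 0.24 (interval 0.17 to 0.31) in fibroblast-like and −0.28 (interval −0.46 to −0.11) in pericyte and smooth muscle-like droplets.

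Both stromal classes hold unlike cells, so each was divided by its own markers, a division made after the values above had been seen. Pericytes wrap capillaries and smooth muscle cells wrap larger vessels and airways. Droplets with a larger share of the 6 pericyte markers (177 in CM, 139 in TCM) held 151 CP100k of Hsd11b1 in CM and 150.2 in TCM, whereas those with a larger share of the 4 smooth muscle markers (148 and 121) held 4.88 and 5.45. Within each of these groups the log2 ratio was near 0, at −0.01 (interval −0.19 to 0.18) and 0.16 (interval −0.60 to 0.93). The interval left 0 in the joined class but in neither of its groups. Among fibroblast-like droplets, the group with more of Inmt, Tcf21 and Col13a1, markers of alveolar fibroblasts, held 127 and 145 CP100k in CM and TCM. The group with more of Lum, Dpt and Clec3b, markers of adventitial fibroblasts, held 14.1 and 25.6, on 37 and 48 UMIs.

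In neutrophil-like droplets Hsd11b1 was counted 7 times in CM and 107 times in TCM, or 2.19 and 4.72 CP100k. The log2 ratio was 1.11, with an interval from 0.01 to 2.46. When classes came from Leiden clusters instead of the gate it was −0.0013, and the class then also held a second cluster with neutrophil markers, of 97 CM and 86 TCM droplets. Free RNA, which droplets take up from lysed cells, was estimated to account for 1.21 of the CM and 33.4 of the TCM counts. In endothelial-like droplets the gene stood at 3.30 and 2.34 CP100k, with a log2 ratio of −0.50 (interval −0.84 to −0.16). Free RNA was put at 39.7 of the 164 CM counts and 60.6 of the 136 TCM counts there.

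Zbtb16 (ENSMUSG00000066687, GRCm38 chromosome 9, 48654297 to 48836222, minus strand) encodes the zinc finger transcription factor PLZF and is a strongly glucocorticoid-responsive gene in many cell types. It showed the largest log2 ratios of the 10 genes among pairs with at least 50 UMIs. Fibroblast-like droplets held 326 UMIs in CM and 790 in TCM, or 10.6 and 30.6 CP100k, a log2 ratio of 1.52 (interval 1.34 to 1.71). Pericyte and smooth muscle-like droplets held 53 and 194 UMIs, or 5.38 and 21.1 CP100k, with a ratio of 1.97 (1.52 to 2.44). Endothelial-like droplets held 538 and 1192 UMIs, or 10.8 and 20.5 CP100k, with a ratio of 0.92 (0.77 to 1.07). The interval of the endothelial-like ratio did not reach those of the other 2 classes. AT2-like droplets held 18 and 88 UMIs, or 1.93 and 7.13 CP100k, with a ratio of 1.89 (1.15 to 2.71).

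The order of the classes changed with this. In CM the endothelial-like and fibroblast-like levels overlapped and exceeded that of the pericyte and smooth muscle-like class. In TCM the fibroblast-like level was highest, and the pericyte and smooth muscle-like and endothelial-like levels overlapped. T-like droplets showed little difference, with 33 and 26 UMIs (1.92 and 2.20 CP100k) and a ratio of 0.19 (interval −0.61 to 0.98). Alveolar macrophage-like droplets held 1 and 2 UMIs, B-like droplets 4 and 3, and monocyte-like droplets 2 and 3.

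The difference was spread over droplets. A Zbtb16 UMI was found in 25.6% of the fibroblast-like droplets in CM (exact interval 22.8 to 28.6%) and in 59.5% in TCM (55.4 to 63.4%). Droplets with 3 or more UMIs of the gene numbered 18 of 891 in CM and 115 of 607 in TCM. In pericyte and smooth muscle-like droplets the shares were 12.2% and 40.6%, in endothelial-like droplets 22.0% and 40.4%, and in AT2-like droplets 6.12% and 27.0%. After thinning each droplet to 1000 UMIs, which kept 641 CM and 535 TCM droplets of the fibroblast-like class, the shares there were 11.1% and 26.4%. They were 4.89% and 16.8% in the pericyte and smooth muscle-like class (266 and 232 droplets kept), 9.79% and 18.0% in the endothelial-like class (1308 and 1377), and 1.66% and 7.52% in the AT2-like class (181 and 226). Of the alveolar macrophage-like droplets, 0.402% in CM and 0.680% in TCM, at median depths of 4569 and 4344 UMIs, held a UMI of this gene. Free RNA was put at 0.644% of the UMIs of that class in TCM. It was put at 14.5% in the AT2-like, 7.74% in the endothelial-like, 4.87% in the pericyte and smooth muscle-like and 3.71% in the fibroblast-like class. The alveolar macrophage-like shares are therefore no background for those classes. Free RNA itself held more Zbtb16 in TCM: droplets of at most 50 UMIs showed 2.87 CP100k in CM (20 UMIs) and 9.28 in TCM (40 UMIs). By this profile free RNA amounted to 0.777 of the 18 CM counts and 16.6 of the 88 TCM counts in AT2-like droplets, and to 7.03 of 538 and 41.8 of 1192 in endothelial-like droplets.

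Within the mixed classes the direction was the same in each group. The Inmt, Tcf21 and Col13a1 group of fibroblast-like droplets went from 11.5 to 32.5 CP100k (log2 ratio 1.50, interval 1.30 to 1.71), and the Lum, Dpt and Clec3b group from 4.95 to 20.8 (2.07, 1.13 to 3.10). The pericyte marker group went from 1.64 to 12.1 CP100k on 6 and 34 UMIs (2.89, 1.62 to 4.43), and the smooth muscle marker group from 7.57 to 24.5 (1.70, 1.21 to 2.21). The endothelial-like droplets were divided by another rule, the marker list with the most genes found in the droplet. Droplets with too few such markers or with a tie were left out. In CM 1209, 196 and 69 of 1784 droplets were general capillary-like, aerocyte-like and large vessel-like. The numbers in TCM were 1224, 210 and 60 of 1707. General capillary-like droplets, the progenitor-bearing capillary type, went from 11.9 to 21.4 CP100k (0.85, 0.69 to 1.02). Aerocyte-like droplets, the type specialised for gas exchange, went from 6.87 to 18.4 (1.42, 0.92 to 1.96), and large vessel-like droplets from 4.59 to 20.5 on 9 and 43 UMIs (2.16, 1.10 to 3.38).

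**Figure D2:**
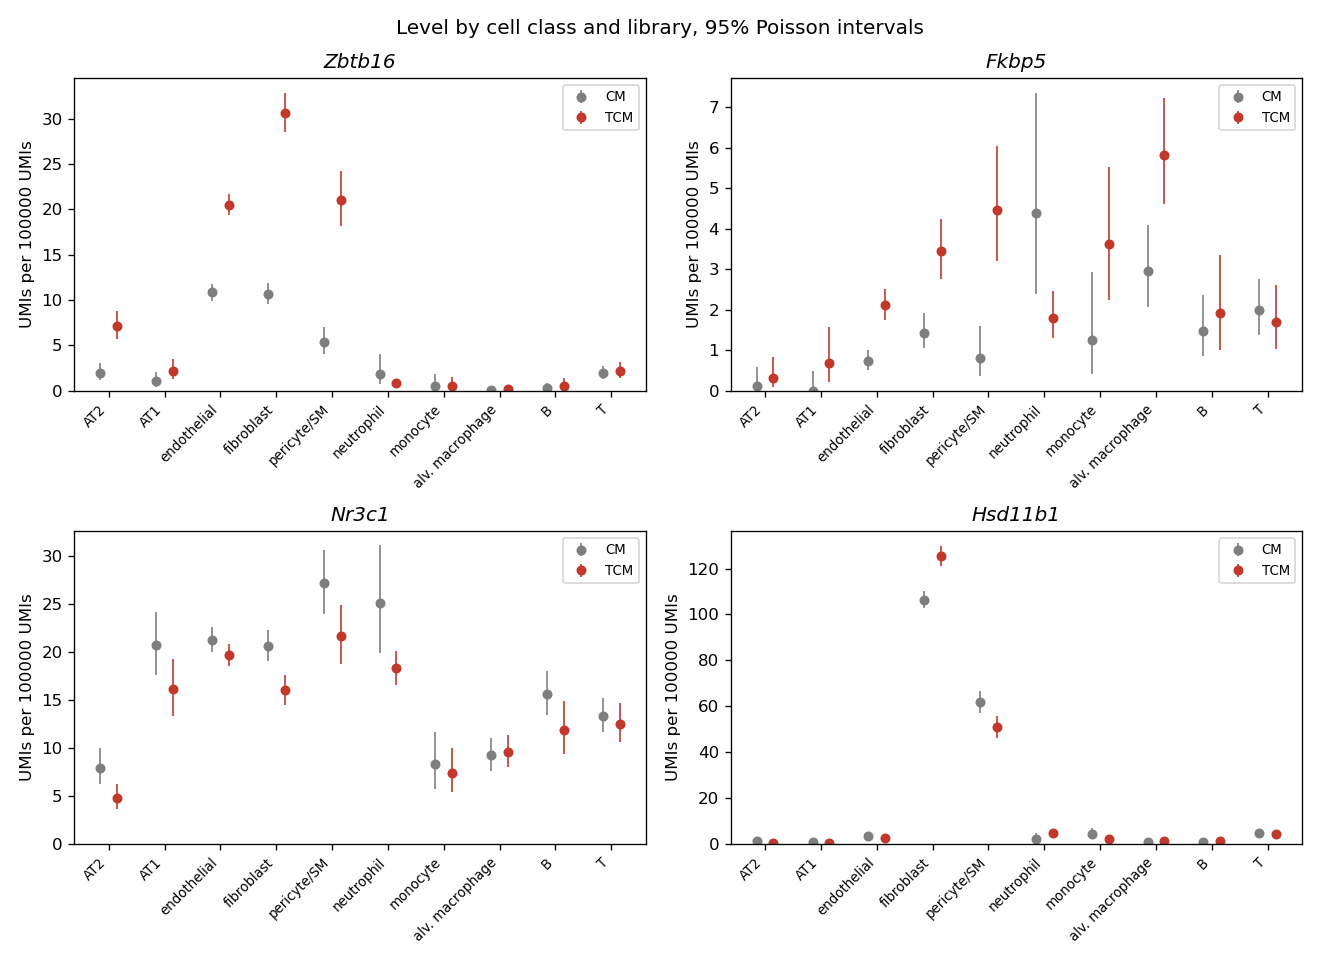
Level in UMIs per 100000 UMIs of the class (y axis) in CM (grey) and TCM (red) for Zbtb16, Fkbp5, Nr3c1 and Hsd11b1 across the 10 classes (x axis), with 95% Poisson intervals; the axes of the panels differ. The Zbtb16 intervals of CM and TCM stood apart in 4 classes, and Hsd11b1 stood out in the fibroblast-like and pericyte and smooth muscle-like classes in both libraries.

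Fkbp5 (ENSMUSG00000024222, GRCm38 chromosome 17, 28399094 to 28517527, minus strand) encodes a co-chaperone that lowers the affinity of the receptor for its hormone and so closes a feedback loop. Each value of this gene rests on few molecules. Endothelial-like droplets held 36 UMIs in CM and 123 in TCM, or 0.725 and 2.11 CP100k, a log2 ratio of 1.54 (interval 0.997 to 2.12). Fibroblast-like droplets held 44 and 89 UMIs, or 1.44 and 3.45 CP100k, with a ratio of 1.26 (0.73 to 1.82). Pericyte and smooth muscle-like droplets held 8 and 41 UMIs, 1 short of the minimum of 50, with a ratio of 2.45 (1.34 to 3.76). Zbtb16 was higher in TCM in the same 3 classes.

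Alveolar macrophage-like droplets, in which Zbtb16 was nearly absent, held 36 and 81 Fkbp5 UMIs (2.95 and 5.81 CP100k). The ratio of 0.98 (interval 0.39 to 1.59) lay just below the 2-fold limit, and 12.0% of the droplets in CM and 23.5% in TCM held a UMI. Monocyte-like droplets held 5 and 21 UMIs, with a ratio of 1.52 (0.08 to 3.29). Neutrophil-like droplets went the other way, with 14 UMIs among 228 droplets in CM and 41 among 1355 in TCM, or 4.38 and 1.81 CP100k (−1.28, interval −2.18 to −0.29). The 14 CM UMIs lay in 14 droplets with 1 UMI each. T-like droplets held 34 and 20 UMIs, with an interval across 0 (−1.10 to 0.61). AT1-like droplets held 0 UMIs in CM, a count that was entered as 3 in the ratio, and 5 in TCM.

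Tsc22d3 (ENSMUSG00000031431, GRCm38 chromosome X, 140539528 to 140600659, minus strand) encodes GILZ, a leucine zipper protein through which glucocorticoids restrain inflammation. It was present in every class. B-like droplets held the highest level in CM, 107 CP100k, and T-like (66.5) and fibroblast-like droplets (61.0) overlapped behind them. The fibroblast-like level was 82.5 CP100k in TCM, a log2 ratio of 0.44 (interval 0.35 to 0.53) on 1868 and 2132 UMIs. AT1-like droplets had 28.9 and 44.4 CP100k and a ratio of 0.62 (0.37 to 0.87). The gene was lower in TCM in 4 classes. Neutrophil-like droplets had 41.3 and 29.3 CP100k (−0.50), monocyte-like droplets 40.4 and 29.2 (−0.47), B-like droplets 107 and 93.2 (−0.20), and endothelial-like droplets 25.0 and 23.1 (−0.12, interval −0.23 to −0.01). Within the endothelial-like class the value of general capillary-like droplets was −0.22 (interval −0.36 to −0.09), while that of aerocyte-like droplets was 0.22 (−0.08 to 0.53).

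Sgk1 (ENSMUSG00000019970, GRCm38 chromosome 10, 21882184 to 21999903, plus strand) encodes a kinase that regulates ion channels and transporters. Alveolar macrophage-like droplets held the most, 47.7 CP100k in CM and 55.5 in TCM (log2 ratio 0.22, interval 0.06 to 0.38), and no other main class overlapped with them. Higher values in TCM were also found in fibroblast-like droplets (8.42 and 12.4 CP100k, 0.56, interval 0.32 to 0.80) and in AT1-like droplets (19.5 and 27.2, 0.48, 0.17 to 0.79). Endothelial-like droplets, the next highest class in CM, did not differ beyond counting error, at 27.3 and 27.9 CP100k on 1357 and 1621 UMIs (0.03, −0.08 to 0.13). Monocyte-like droplets were lower in TCM, at 14.6 and 8.43 CP100k (−0.79, −1.37 to −0.22).

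Per1 (ENSMUSG00000020893, GRCm38 chromosome 11, 69095217 to 69109960, plus strand) encodes a repressor of the circadian clock that glucocorticoids can reset. Neutrophil-like droplets held more than any other main class, 18.4 CP100k in CM and 17.5 in TCM, and did not differ between the libraries (log2 ratio −0.08, interval −0.47 to 0.34). Pericyte and smooth muscle-like droplets held 27 and 52 UMIs, or 2.74 and 5.64 CP100k, with a ratio of 1.04 (0.35 to 1.77). This value was 0.22 when classes came from Leiden clusters. Alveolar macrophage-like droplets held 46 and 96 UMIs, with a ratio of 0.87 (0.35 to 1.41). Endothelial-like droplets, with 313 and 358 UMIs, had a ratio of −0.04 (−0.26 to 0.19).

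Klf9 (ENSMUSG00000033863, GRCm38 chromosome 19, 23141226 to 23168134, plus strand) encodes a Krüppel-like transcription factor that links hormone signals to differentiation. Its highest levels were in the structural classes, although in CM the intervals of AT2-like (12.4 CP100k) and monocyte-like droplets (7.79) overlapped. Fibroblast-like droplets held 51.9 CP100k in CM and 54.5 in TCM, and pericyte and smooth muscle-like droplets 42.1 and 53.9, while T-like, B-like and neutrophil-like droplets held at most 1.997. Its largest difference among structural classes was in AT2-like droplets, from 116 to 230 UMIs or 12.4 to 18.6 CP100k (0.59, interval 0.26 to 0.92). The pericyte and smooth muscle-like ratio was 0.36 (0.17 to 0.55), the endothelial-like ratio 0.15 (0.06 to 0.25) and the fibroblast-like ratio 0.07 (−0.03 to 0.18). The fibroblast-like interval thus held 0 for this gene, although Zbtb16 differed widely there. Alveolar macrophage-like droplets held 2.87 and 4.59 CP100k of Klf9 (0.68, 0.06 to 1.31), and monocyte-like droplets 7.79 and 4.13 (−0.92, −1.75 to −0.10).

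Errfi1 (ENSMUSG00000028967, GRCm38 chromosome 4, 150853919 to 150868892, plus strand) encodes an inhibitor of the epidermal growth factor receptor. All 6 classes with at least 50 UMIs had a ratio above 0. Fibroblast-like droplets went from 29.5 to 45.5 CP100k on 903 and 1174 UMIs (0.62, interval 0.50 to 0.75). Endothelial-like droplets went from 4.45 to 5.86 (0.40, 0.15 to 0.65) and AT2-like droplets, the highest class in CM, from 38.7 to 48.4 (0.32, 0.13 to 0.51). Both groups of fibroblast-like droplets showed it, at 0.58 (0.44 to 0.72) and 0.79 (0.33 to 1.26). The pericyte marker group did not, at 5.45 and 3.20 CP100k (−0.77, −2.09 to 0.43).

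Ddit4 (ENSMUSG00000020108, GRCm38 chromosome 10, 59949669 to 59951834, minus strand) encodes REDD1, which holds back the growth kinase mTOR under stress and hormone signals. Among the 10 main classes endothelial-like droplets held the most, 16.8 CP100k in CM and 18.9 in TCM (0.17, interval 0.04 to 0.30). Large vessel-like droplets exceeded the other endothelial-like groups, at 48.9 and 42.4 CP100k. Fibroblast-like droplets went from 73 to 97 UMIs (2.38 and 3.76 CP100k, 0.66, 0.20 to 1.11). Neutrophil-like droplets held 6 UMIs in CM and 131 in TCM, or 1.88 and 5.77 CP100k, with a ratio of 1.62 (0.46 to 3.09), and 0.37 when classes came from Leiden clusters. B-like droplets went from 92 to 30 UMIs, or 7.99 to 4.81 CP100k (−0.73, −1.38 to −0.12).

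**Figure D3:**
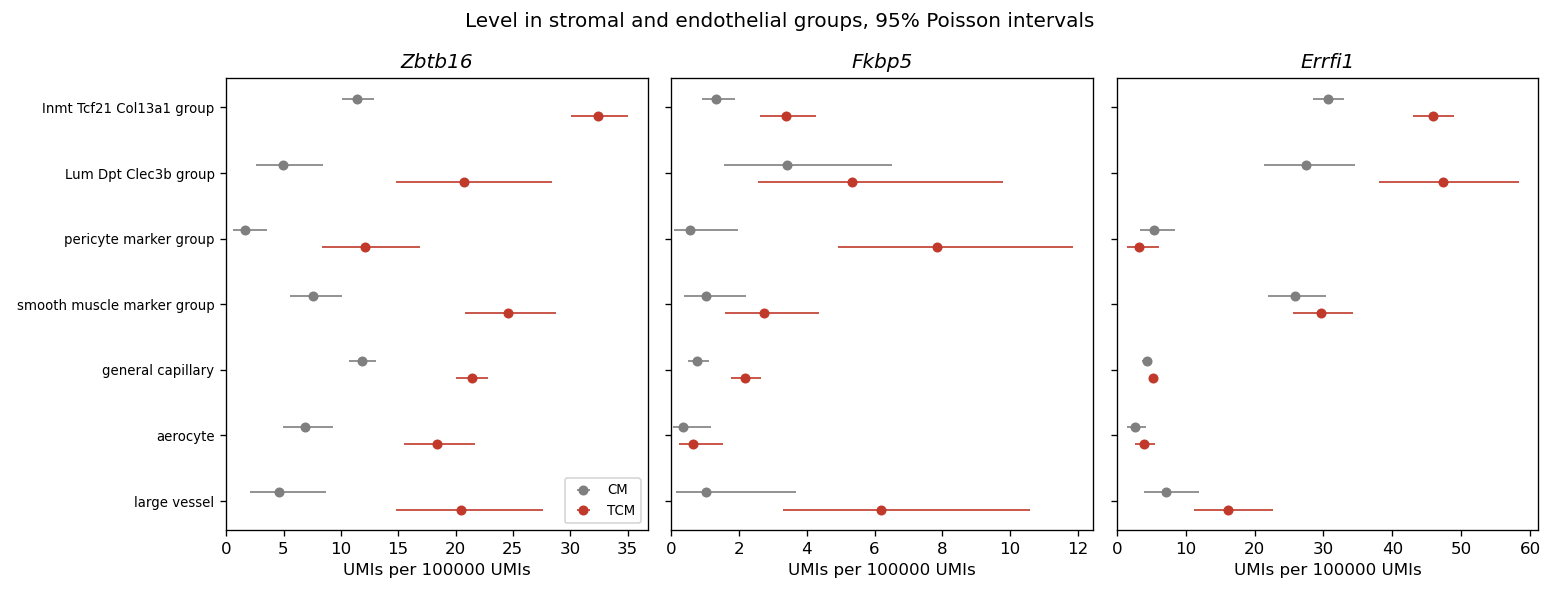
Level in UMIs per 100000 UMIs (x axis) of Zbtb16, Fkbp5 and Errfi1 in CM (grey) and TCM (red), with 95% Poisson intervals, in 2 groups of fibroblast-like, 2 of pericyte and smooth muscle-like and 3 of endothelial-like droplets (y axis). Zbtb16 was higher in TCM in all 7 groups with intervals apart, whereas Errfi1 intervals were apart in both fibroblast-like groups.

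The promoters of the members were read for the letters of receptor binding elements. The RefSeq table on GRCm38.p6 used here covers 250 bases before to 50 bases after each start site. The search took in 17 windows for 8 members. The table held no entry for Zbtb16, and no window of the receptor gene Nr3c1 was searched. Searched on both strands were a palindrome of GNACA and TGTNC set 3 bases apart, which is the inverted repeat bound by the receptor dimer, its half-site TGTTCT, which can overlap the palindrome, and TGACG, the core of the element for cAMP response factors. Among the 32851 windows searched, 0.475% held the palindrome, 19.0% the half-site and 20.8% TGACG. The palindrome occurred in 1 of the 17 windows, a Sgk1 start, and the half-site in 4 windows of Sgk1 and Tsc22d3. TGACG occurred in 6 windows of Errfi1, Klf9, Per1, Sgk1 and Tsc22d3. The Sgk1 window is shown because it holds the palindrome, a Tsc22d3 window because it holds a half-site, and the Fkbp5 window, which holds no match, because the ratios of that gene ran alongside those of Zbtb16. Each is written 5′ to 3′ on the gene's strand, with matches in capitals. The Sgk1 window is chr10:21993640-21993939 (plus), that of Tsc22d3 chrX:140600473-140600772 (minus) and that of Fkbp5 chr17:28486100-28486399 (minus).
Sgk1: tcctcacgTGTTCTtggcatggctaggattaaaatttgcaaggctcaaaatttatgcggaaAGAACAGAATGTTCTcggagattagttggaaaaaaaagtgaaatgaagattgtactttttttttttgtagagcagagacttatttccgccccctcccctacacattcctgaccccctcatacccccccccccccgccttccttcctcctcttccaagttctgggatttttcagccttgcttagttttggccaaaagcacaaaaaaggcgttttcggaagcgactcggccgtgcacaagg
Tsc22d3: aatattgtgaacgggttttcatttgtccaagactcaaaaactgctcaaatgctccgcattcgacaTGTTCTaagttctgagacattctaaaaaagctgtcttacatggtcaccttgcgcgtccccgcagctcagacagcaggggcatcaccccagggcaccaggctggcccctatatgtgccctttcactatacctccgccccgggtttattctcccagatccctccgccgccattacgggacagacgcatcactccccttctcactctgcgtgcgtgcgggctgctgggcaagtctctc
Fkbp5: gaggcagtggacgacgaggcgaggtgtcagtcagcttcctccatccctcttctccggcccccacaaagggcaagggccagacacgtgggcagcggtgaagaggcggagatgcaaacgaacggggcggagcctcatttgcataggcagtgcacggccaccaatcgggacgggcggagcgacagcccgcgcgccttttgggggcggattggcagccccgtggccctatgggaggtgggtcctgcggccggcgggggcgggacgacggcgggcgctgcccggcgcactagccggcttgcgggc
In the Sgk1 window the palindrome GAACAGAATGTTC starts 188 bases before the start site, and 2 of the 3 half-sites in the window overlap it. The absence of a match for Fkbp5 says only that these letters are not in these 300 bases.

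The pair of members with the highest correlation over classes was Zbtb16 and Fkbp5. As the highest of all pairs of members its correlation is high by selection, and other pairs rested on up to 10 classes. Over the 5 classes in which each had at least 20 UMIs the Pearson correlation of their log2 ratios was 0.96, with both intervals above 0 in 3 of them (endothelial-like, fibroblast-like and pericyte and smooth muscle-like). This correlation describes 5 points from 2 libraries that share depth and free RNA, and its low end was the neutrophil-like class, where Zbtb16 had 6 and 18 UMIs and a ratio of −1.24 (interval −2.64 to 0.38), and free RNA was put at 23.1 UMIs in TCM. Tsc22d3 and Sgk1 had a correlation of 0.79 over 10 classes, with both intervals on the same side of 0 in 3 classes and on opposite sides in none. Tsc22d3 and Per1 had the same sign in 9 of 10 classes, at a correlation of 0.47, but in none of these did both intervals leave 0. Zbtb16 and Hsd11b1 had a correlation of −0.74 over 5 classes. Both intervals lay on the same side of 0 in 1 class, the fibroblast-like one, and on opposite sides in 2. The neutrophil-like class was again at the end of the range, and there Hsd11b1 had 7 UMIs in CM and 107 in TCM. Among the 1539 genes with at least 50 UMIs in each class, the ratios most like those of Zbtb16 over 8 classes were those of Pomp, Nadk, Nono, Atp5b and Klf13 (correlations 0.93 to 0.97), and those most like Fkbp5 over 10 classes were Atp5b, Pomp, Nono, Tomm20 and Hmgn2 (0.86 to 0.97). Over the classes the ratios of these 7 genes stayed between −1.15 and 0.55, a narrower range than that of the 2 members. No minimum of UMIs was set for the 2 members in this comparison. Fkbp5 had 1 and 4 UMIs in AT2-like droplets and 0 and 5 in AT1-like droplets, with 3 entered for the 0. Zbtb16 had 4 and 3 UMIs in B-like droplets. The genes named are the top 5 of 1539 for each member over few classes, so their correlations are high by selection.

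**Figure D4:**
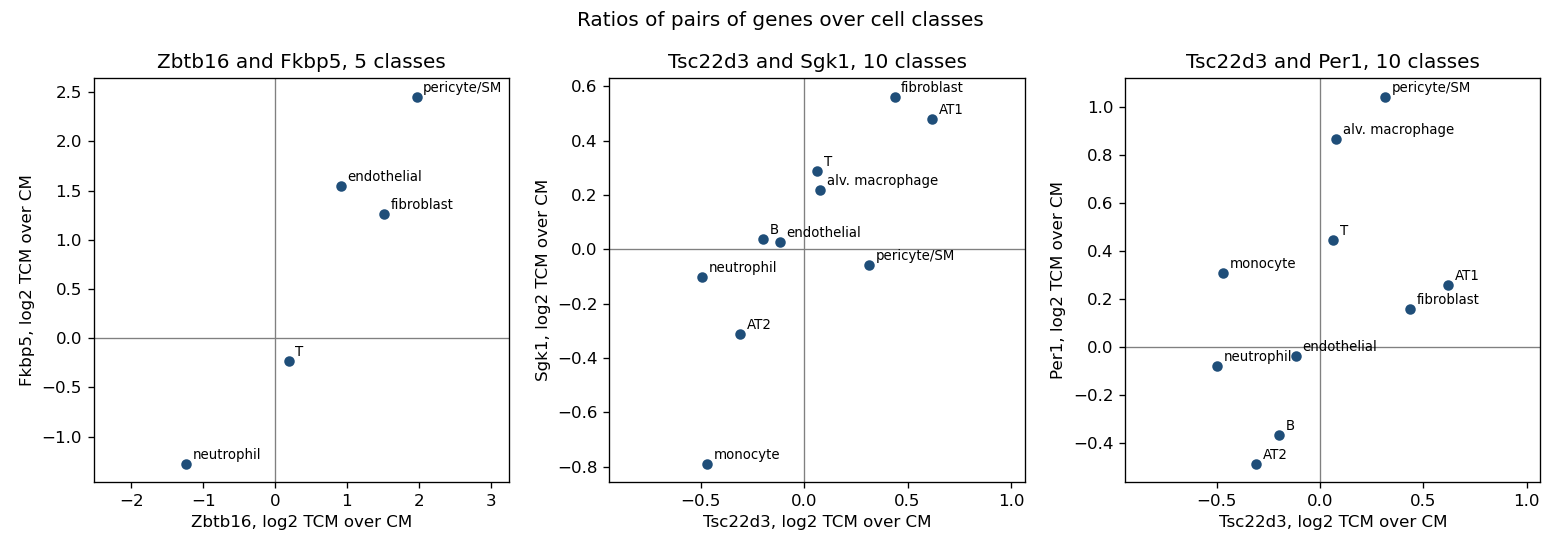
Log2 ratio of TCM over CM of one gene (x axis) against another (y axis), where each point is a cell class with at least 20 UMIs of both genes. In the panel of Zbtb16 and Fkbp5 the endothelial-like, fibroblast-like and pericyte and smooth muscle-like classes lie at the upper right and the neutrophil-like class at the lower left.

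Single droplets were also examined after thinning to 1000 UMIs. In TCM, 11 of 30 endothelial-like droplets with a Fkbp5 UMI also held Zbtb16 (36.7%, exact interval 19.9 to 56.1%), against 237 of 1347 without one (17.6%, 15.6 to 19.7%). The other classes had fewer droplets with Fkbp5. Of 17 fibroblast-like droplets with Fkbp5 in TCM 29.4% held Zbtb16 (10.3 to 56.0%), against 26.3% without, and of 11 pericyte and smooth muscle-like droplets with Fkbp5 in TCM 0 did, against 17.6%. In CM the counts were 1 of 9 endothelial-like (9.78% without), 0 of 8 fibroblast-like (11.2% without) and 0 of 2 pericyte and smooth muscle-like droplets (4.92% without). Comparisons with the remaining members were made in the same classes, and of those only some with Tsc22d3 and Sgk1 are given here. With and without Tsc22d3 the shares in endothelial-like droplets of TCM were 23.6% (18.6 to 29.2%) and 16.7% (14.6 to 19.0%), with overlapping intervals. In CM the endothelial-like shares of Zbtb16 were 11.4% and 9.35% with and without Tsc22d3. Among fibroblast-like droplets in CM, Zbtb16 was found in 31.8% (18.6 to 47.6%) of the 44 droplets with Sgk1 and in 9.55% (7.31 to 12.2%) of those without. In TCM the corresponding shares were 27.6% and 26.2%, with overlapping intervals. Droplets of 1 library are not replicates of a condition, and these intervals cover counting error only.

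Other genes of the pathway were taken from 3 lists, to be read against the backgrounds given above for each class. Of 25 further glucocorticoid-induced genes, 19 had enough UMIs in fibroblast-like droplets. There 12 had intervals above 0 and 1 below, 2 were at least 2-fold higher, and the median log2 ratio was 0.33. In endothelial-like droplets 9 of 21 intervals lay above 0 and 5 below, and in neutrophil-like droplets 4 of 14 lay above and 8 below, with medians of 0.06 and −0.27. The largest differences were those of Mt1, a metal-binding metallothionein, in monocyte-like (17 and 141 UMIs, 2.51) and neutrophil-like droplets (14 and 265 UMIs, 1.42). Free RNA was put at 1.92 and 1.28 of these UMIs in CM and TCM in the monocyte-like class, and at 3.08 and 107 in the neutrophil-like class. Pdk4, a brake on glucose oxidation, was higher in pericyte and smooth muscle-like droplets (20 and 43 UMIs, 1.20). Sult1a1, a sulfotransferase, was higher in fibroblast-like droplets (90 and 167 UMIs, 1.14), and Cdkn1a, a cell cycle inhibitor, in T-like droplets (34 and 50 UMIs, 1.09). Free RNA was put at 21.4 and 13.9 of the Cdkn1a UMIs in CM and TCM. For Sult1a1 it was put at 4.78 and 4.44 UMIs, and for Pdk4 at 0.0322 and 0.313.

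Of 18 receptor partners, cofactors and steroid enzymes, 16 had enough UMIs in fibroblast-like droplets, with a median of 0.10, 1 interval above 0 and 2 below. No gene of this list was at least 2-fold higher in any class. Ncoa3, a coactivator, was lower in monocyte-like droplets (35 and 19 UMIs, −1.43), and the chaperone gene Stip1 in B-like droplets (121 and 28 UMIs, −1.23). Of 13 clock genes, 8 had enough UMIs in fibroblast-like droplets, and there 1 interval lay above 0 and 1 below. In endothelial-like droplets none of 8 lay above and 1 lay below. The 1 clock gene past 2-fold was Bhlhe40, a transcriptional repressor, in B-like droplets (51 and 12 UMIs, −1.20).

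Genes that cell dissociation induces are given here beside the members. Of 12 such genes, 10 had intervals below 0 (background 9.06%) and 1 above (background 10.5%) in endothelial-like droplets. In fibroblast-like droplets 7 had intervals below 0 (background 6.46%) and 2 above (background 7.38%). The median log2 ratios were −0.24 and −0.16, against 0.0087 and −0.0040 over all genes with enough UMIs. In pericyte and smooth muscle-like droplets 4 lay below (background 6.13%) and 3 above (background 6.22%). In AT2-like droplets 6 of 11 lay above (background 8.76%) and 2 below (background 5.4%), with a median of 0.17 (all genes 0.057). In alveolar macrophage-like droplets 4 of 11 lay above (background 11.8%) and none below (background 5.46%), with a median of 0.20 (all genes 0.095). Hspa1a, a heat shock chaperone gene, was counted 1288 and 665 times in endothelial-like droplets (log2 ratio −1.18), 666 and 269 times in pericyte and smooth muscle-like droplets (−1.21) and 119 and 57 times in AT2-like droplets (−1.46). Hspa1b was lower in pericyte and smooth muscle-like droplets (−1.41). In neutrophil-like droplets Atf3 (−1.50) and Fosb (−1.48), early response transcription factors, were lower. The part of the dissociation response in the values of the 10 members was not tested.

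Markers of other classes are given here for the 4 classes in which the Zbtb16 interval lay above 0, as sums over each list for the 9 other main classes. In AT2-like droplets 3 of the 9 sums were higher in TCM. AT1 markers stood at 153 CP100k in CM and 179.8 in TCM, endothelial markers at 27.3 and 28.5, monocyte markers at 4.39 and 4.94, and fibroblast markers at 21.3 and 7.70. In endothelial-like droplets 4 of 9 sums were higher, those of AT2 (27.2 and 40.01 CP100k), monocyte (182 and 262), neutrophil (7.23 and 14.2) and alveolar macrophage markers (2.40 and 3.73). Fibroblast markers there stood at 45.6 and 38.1. In fibroblast-like droplets 6 of 9 sums were higher, with AT2 markers at 19.4 and 25.3 CP100k, pericyte and smooth muscle markers at 77.8 and 93.9 and endothelial markers at 39.7 and 42.7. In pericyte and smooth muscle-like droplets 6 of 9 were higher too, with AT2 markers at 19.2 and 34.0 CP100k, monocyte markers at 2.13 and 5.97, endothelial markers at 64.9 and 67.4 and fibroblast markers at 177 and 179.6. The part of droplets or RNA of other classes in the values of the 10 members was not tested.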

How the data were processed

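Lungs of CM and TCM mice were dissociated and loaded on the Chromium Single Cell 5′ platform, and the authors deposited 1 matrix of raw UMI counts per library, made with Cell Ranger (version 4 per the file header) on mm10. Gene positions are those of GENCODE vM21 on GRCm38, and promoter windows come from RefSeq (GRCm38.p6). The members and all lists were chosen with earlier results of these data known.

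Droplets with at least 500 UMIs, 200 genes and at most 10% mitochondrial UMIs were kept. A droplet was given a class if it held at least 3 of its markers and at least 2 times as many as of the next class. The doublet caller of scanpy 1.11.5 marked 0 droplets in both libraries and so had not worked. Removal of the top 6% of its scores in each library was tried in its place, and otherwise doublets were handled only by leaving out droplets with markers of several classes. UMIs were summed by class and library and scaled to 100000 UMIs. Intervals (95%) are exact Poisson for levels, conditional binomial for ratios and Clopper-Pearson for shares of droplets (scipy 1.17.1). They cover counting error only. The free RNA profile was that of barcodes holding at most 50 UMIs, and its amount in a class was the smaller of the estimates from Scgb1a1 and from 4 globin genes. The named genes of the pathway lists were those at least 2-fold apart with at least 50 UMIs, at most 4 per list and the largest first, and the 5 genes of most similar ratio were named for Zbtb16 and Fkbp5. Division of the stromal classes by further markers was decided after their values were seen. The ratio code was tested on simulated data. With 1 library per group, no test between groups was possible.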

Additional observations from a re-analysis of the deposited data

Results flagged for a closer look

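For 6 of the 10 genes the intervals of the TCM over CM ratio lay above 0 in one class and below 0 in another. The share of all genes with such opposite intervals was not computed, so the count cannot be read as a trait of these genes. The log2 ratio of Hsd11b1 was 1.11 in neutrophil-like and −0.50 in endothelial-like droplets, and that of Fkbp5 was 1.54 in endothelial-like and −1.28 in neutrophil-like droplets. Tsc22d3 stood at 0.62 in AT1-like and −0.50 in neutrophil-like droplets. Sgk1 stood at 0.56 in fibroblast-like and −0.79 in monocyte-like droplets, and Klf9 at 0.68 in alveolar macrophage-like and −0.92 in monocyte-like droplets. Ddit4 stood at 1.62 in neutrophil-like and −0.73 in B-like droplets. With 1 library per group these differences between classes were not tested.

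The droplets without a class entered none of the comparisons between classes. They held 416 Zbtb16 UMIs in CM and 1065 in TCM, or 4.78 and 12.8 CP100k, a log2 ratio of 1.42 (interval 1.26 to 1.59).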

How the results depend on the processing

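No paired analysis was possible because each group had 1 library. Pairs of a gene and a class at least 2-fold higher in TCM numbered 8, and between 6 and 11 under the alternatives. Pairs at least 2-fold lower numbered 1. That count was 2 with Leiden clusters, 3 with free RNA subtracted and 4 with a minimum of 20 UMIs, and 0 with the stricter gate, with at least 1000 UMIs per droplet or after thinning to 1000 UMIs. Zbtb16 in the AT2-like (1.39 to 3.21), fibroblast-like (1.44 to 1.57) and pericyte and smooth muscle-like classes (1.53 to 2.33) and Fkbp5 in the endothelial-like (1.31 to 1.83) and fibroblast-like classes (1.23 to 1.51) stayed past 2-fold under all 10 alternatives that recomputed the ratio. Hsd11b1 in neutrophil-like droplets went from 1.11 to −0.0013 with Leiden clusters, for which the cause was not tested. The median of the members in B-like droplets went from −0.08 to −1.10 without the 10 highest droplets of each gene. That setting removes most or all counts of genes found in few droplets, such as the 7 TCM droplets with Klf9, and so says nothing about stability there. Of the 73 pairs, 19 left their interval after thinning, 7 as a mean over droplets and at most 6 under each other alternative. Counts were few for Fkbp5, with 49 UMIs in the pericyte and smooth muscle-like class.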

Other observations

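Some smaller classes, which had fewer than 100 droplets in a library, also held members above the counting error. So did the aerocyte-like group within the endothelial-like class, with 196 droplets in CM and 210 in TCM. In interstitial macrophage-like droplets (70 in CM, 63 in TCM) Fkbp5 was counted 11 and 23 times (log2 ratio 1.20, interval 0.10 to 2.38) and Ddit4 11 and 30 times (1.58, 0.54 to 2.72). NK-like droplets held 50 and 43 UMIs of Hsd11b1, or 13.2 and 24.3 CP100k (0.88, 0.26 to 1.50), levels above those of every main class other than the 2 stromal ones. In aerocyte-like endothelial droplets Hsd11b1 was counted 20 and 4 times (−2.66, −4.67 to −1.08) and Per1 42 and 28 times (−0.92, −1.66 to −0.20), while Ddit4 was counted 58 and 115 times (0.65, 0.19 to 1.13). Ddit4 was counted 101 times in the 13 basophil-like droplets of CM and 90 times in the 10 of TCM, or 177 CP100k (144 to 215) and 321 CP100k (258 to 394), levels above those of every main class. Nr3c1 stood at 47.0 and 42.8 CP100k in ILC2-like droplets, on 22 and 17 UMIs.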
